A study of Homo sapiens with 24 samples.

Results

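Transcript levels of 7 genes encoding pentose phosphate pathway enzymes were examined in 3 ER+ human breast cancer cell lines cultured at low or high glucose. The members were the rows of the deposited normalized table named PGD, PGLS, TKT, TALDO1, RPIA, RPE and H6PD, which are 7 of 18889 genes; they are not every enzyme of the pathway. HCC1500, MDA-MB-175 and ZR-75-30 cells, each a single established line, were first conditioned in low glucose and then kept without serum for 48 hours. The medium held glucose at either 5 mM, the control or low-glucose condition, or 25 mM, the high-glucose condition that models hyperglycemia. Each of the 6 groups had 4 RNA-Seq samples, 24 in all. No source states whether the samples of a group came from separate cultures, nor whether an osmotic control was part of these experiments, so the p-values measure the spread between these samples only.

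The pentose phosphate pathway leaves glycolysis at the first phosphorylated form of glucose. Its oxidative branch yields NADPH, the reductant for lipid synthesis and antioxidant defence, and ends in a pentose phosphate. Its nonoxidative branch interconverts sugar phosphates, so that pentoses can be made into nucleotides or returned to glycolysis. In the oxidative branch PGLS opens the lactone intermediate and PGD makes the pentose and the second NADPH of the branch. In the nonoxidative branch RPIA and RPE isomerize and epimerize the pentose, and TKT (transketolase) and TALDO1 (transaldolase) move carbon fragments between sugars. H6PD carries out the first oxidative steps inside the endoplasmic reticulum, on a separate pool of NADPH.

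Promoters are shown for PGD and TKT, which moved in opposite directions, and for H6PD, whose change differed between lines. They are the 250 bases before the RefSeq start of each gene on its own strand (GRCh38.p14), with matches to any of 4 short motifs in capitals, read on both strands and allowed to overlap: the antioxidant response element core TGACNNNGC, the E-box CACGTG, the CCAAT box CCAAT and the GC box GGGCGG. PGD lies at chr1:10398814-10399063 (plus strand), TKT at chr3:53256023-53256272 (minus strand) and H6PD at chr1:9239597-9239846 (plus strand).
PGD: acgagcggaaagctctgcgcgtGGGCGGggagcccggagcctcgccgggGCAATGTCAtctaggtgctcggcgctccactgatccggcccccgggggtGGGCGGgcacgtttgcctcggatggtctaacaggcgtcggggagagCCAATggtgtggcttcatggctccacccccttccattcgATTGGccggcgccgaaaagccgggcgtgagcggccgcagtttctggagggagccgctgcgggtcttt
TKT: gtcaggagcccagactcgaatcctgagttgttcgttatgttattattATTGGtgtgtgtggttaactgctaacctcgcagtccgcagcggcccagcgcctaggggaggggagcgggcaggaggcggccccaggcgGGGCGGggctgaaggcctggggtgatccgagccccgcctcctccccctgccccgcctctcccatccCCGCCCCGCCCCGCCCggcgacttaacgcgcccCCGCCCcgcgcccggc
H6PD: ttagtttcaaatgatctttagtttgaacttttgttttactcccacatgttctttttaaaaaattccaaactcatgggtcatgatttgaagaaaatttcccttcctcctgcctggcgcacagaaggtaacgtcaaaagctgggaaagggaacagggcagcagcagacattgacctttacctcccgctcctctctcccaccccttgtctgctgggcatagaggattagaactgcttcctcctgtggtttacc
The PGD window held 1 antioxidant response element core, 2 CCAAT boxes and 2 GC boxes, the TKT window 1 CCAAT box and 5 GC boxes, and the H6PD window none of the 4 motifs. Of 35116 promoter windows of the same length, 10.9% held the antioxidant response element core, 6.34% the E-box, 32.0% the CCAAT box and 42.6% the GC box. The share of G and C bases was 68.4% for PGD, 70.4% for TKT and 44.8% for H6PD. Among the other members RPE also held 1 antioxidant response element core, none held an E-box, and the PGLS window held none of the 4 motifs. A match is a description of the letters and not of factor binding.

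The values are normalized values as deposited, which were whole reads divided by a factor for each sample. The recovered reads ranged from 9140024 to 17998819 per sample, and a floor of 3 reads corresponded to values of 0.953 to 2.29. All 7 genes were far above it, with from 112 reads (the lowest RPIA sample) to 13363 reads (the highest TKT sample), and all 7 passed the filter on low values in every fit. The 7 markers of luminal breast carcinoma cells summed to 25710 to 49081 per sample. Among them CDH1, which encodes E-cadherin, averaged 55.6 in ZR-75-30 at low glucose against 6498 in MDA-MB-175 and 8223 in HCC1500. In ZR-75-30 the sum of the 7 was 39784 to 43097 at low and 29845 to 34304 at high glucose. It was mostly KRT8 (means of 18786 at low and 14822 at high glucose) and KRT18 (15720 and 11920). There 1 of the 7 was called higher (EPCAM), 4 lower and 2 not, against 46.0% of all tested genes called. The sum was 40868 to 47672 at low and 45432 to 49081 at high glucose in MDA-MB-175. In HCC1500 it was 27169 to 28087 and 25710 to 37218. Of 8 markers of leukocytes, endothelium and fibroblasts, 5 were listed (PTPRC, CD3E and PECAM1 were not analysed here) and summed to 115 to 259, mostly COL1A1. This sum lay at 130 to 157 at low and 124 to 134 at high glucose in MDA-MB-175, at 115 to 132 and 119 to 143 in ZR-75-30, and at 229 to 259 and 171 to 224 in HCC1500. CD68, known from macrophages, was at most 43.9, with a mean of 5.66 at low and 37.7 at high glucose in ZR-75-30. The part of these markers in the results was not tested.

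Replicate 3 of HCC1500 at high glucose stood apart. Its mean Pearson correlation with the other samples of its group was 0.944 over 13310 genes, and the lowest such value among the other 23 samples was 0.990. Its deviation from the other 3 samples fell with transcript length (Spearman's rho = -0.68 over 12934 genes), with a median of 1.12 on the log2(value + 1) scale for transcripts under 1500 bases and -0.45 for those over 5000 bases. The enzyme genes were spread along the same range. PGLS, with a transcript of 1008 bases, was at 524 in replicate 3 and at 150 to 188 in the other 3 samples. TALDO1, of 1199 bases, was at 977 against 411 to 425. H6PD, of 9147 bases, was at 103 against 110 to 127. The part of transcript length in these differences was not tested. The glucose change of each member in HCC1500 is given with and without this sample.

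**Figure D1:**
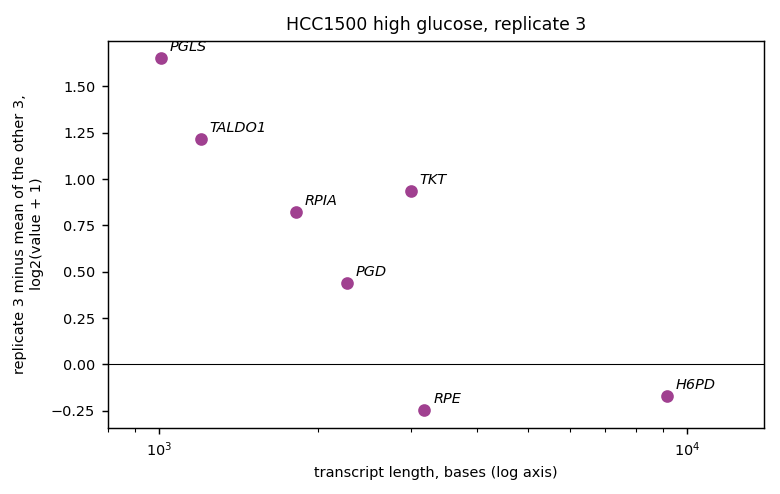
Deviation of HCC1500 high-glucose replicate 3 from the mean of the other 3 samples of its group (y axis, difference in log2(value + 1)) for the 7 enzyme genes, against the length of the transcript in bases (x axis, log scale). PGLS (1.65) and TALDO1 (1.22) have the shortest transcripts and the largest deviations, and RPE (-0.25) and H6PD (-0.17) have the longest transcripts and lie below 0.

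Levels differed widely between the enzymes. Per kb of the canonical transcript, the scale on which genes can be compared, TALDO1 was the highest of the 7 in MDA-MB-175 at low glucose (1575 ± 111, SD, n = 4), followed by TKT (1173 ± 97.1), PGD (432 ± 19.4), PGLS (190 ± 25.1), RPE (166 ± 6.97), RPIA (45.3 ± 3.92) and H6PD (15.3 ± 0.75). PGLS and RPE were neighbours whose means lay within 1 SD of PGLS. ZR-75-30 at low glucose had the same order, with TALDO1 at 2545 ± 40.3, TKT at 1495 ± 54.4 and PGD at 1333 ± 28.5 per kb. HCC1500 at low glucose had another, with TALDO1 at 463 ± 27.2, PGD at 389 ± 9.30, TKT at 318 ± 8.84 and PGLS at 250 ± 5.06 per kb, and with RPE (58.8 ± 3.06) and RPIA (58.8 ± 6.06) not told apart. TKT, TALDO1 and PGD together thus took most of the summed per-kb level in each line. The share of PGD alone at low glucose was 25.1% ± 0.89 in HCC1500, 23.2% ± 0.15 in ZR-75-30 and 12.0% ± 0.56 in MDA-MB-175. At high glucose it was 14.8% ± 0.21 in ZR-75-30 and 9.70% ± 0.18 in MDA-MB-175. In HCC1500 at high glucose it was 24.9% ± 0.91 without replicate 3, close to its low-glucose share, and 22.9% ± 3.94 with it.

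**Figure D2:**
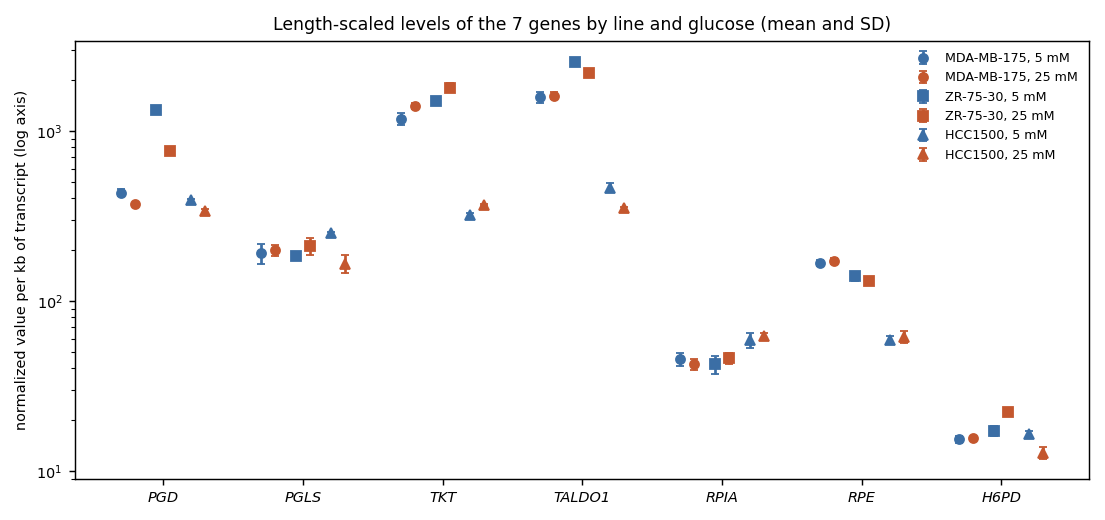
Normalized value per kb of transcript (y axis, log scale) of the 7 genes by line (marker shape) and glucose concentration (color), as mean and SD of 4 samples, or of 3 in HCC1500 at 25 mM, where replicate 3 is left out. TKT, TALDO1 and RPE lie lower in HCC1500 than in the other lines, and PGD lies highest in ZR-75-30.

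The lines were compared at low glucose in a limma model of all 24 samples, where a gene was called at a Benjamini-Hochberg adjusted p under 0.05 over 18144 tested genes. Between ZR-75-30 and HCC1500, 5 of 7 members were called, against 73.0% of all tested genes. TALDO1 was higher in ZR-75-30 by 2.46 (SE 0.17, adjusted p = 8.33e-12) on the log2(value + 1) scale, TKT by 2.23 (SE 0.14, 8.01e-13), PGD by 1.78 (SE 0.07, 5.66e-16) and RPE likewise (adjusted p = 9.03e-14), while RPIA was lower (-0.47, SE 0.15, 0.00624). Between MDA-MB-175 and HCC1500, 4 of 7 were called (72.6% of all genes): TKT (1.88), TALDO1 (1.77) and RPE (1.49) were higher in MDA-MB-175 and RPIA was lower (-0.37). Between MDA-MB-175 and ZR-75-30, 5 of 7 were called (63.8% of all genes), with PGD the farthest apart (-1.62, SE 0.07, adjusted p = 5.14e-15). Without replicate 3 of HCC1500 at high glucose, these low-glucose differences changed only in their errors. The counts became 6 (79.0% of all genes), 6 (79.5%) and 5 (72.1%) of 7. The genes gained were PGLS in both comparisons with HCC1500 (-0.45 from ZR-75-30 and -0.40 from MDA-MB-175) and PGD in that with MDA-MB-175 (0.15). Most genes differed between the lines, and the counts of members lay on either side of those shares. At high glucose the difference between ZR-75-30 and HCC1500 was 0.84 (SE 0.07) for H6PD, against 0.06 (SE 0.07) at low glucose, and 1.07 (SE 0.07) for PGD, against 1.78. Without replicate 3 these high-glucose differences were 0.80 (SE 0.06) for H6PD and 1.18 (SE 0.04) for PGD.

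PGD, the dehydrogenase of the oxidative branch, was lower at high glucose in ZR-75-30 and MDA-MB-175, and in HCC1500 when replicate 3 was left out. In ZR-75-30 its values were 2961, 3045, 3105 and 2985 at low glucose and 1724, 1770, 1832 and 1617 at high glucose. All 4 high-glucose samples lay far below all 4 low-glucose samples. The fitted change was -0.80 (SE 0.04, limma adjusted p = 1.54e-11). In bulk RNA, fewer transcripts per cell and a smaller share of cells that express a gene cannot be told apart. In MDA-MB-175 the values were 1044, 942, 968 and 968 at low and 854, 848, 810 and 837 at high glucose, again with no overlap, and PGD fell by 0.23 (SE 0.04, adjusted p = 9.79e-04). In HCC1500 the low-glucose samples had 899.6, 858, 872 and 901, and the high-glucose samples 740, 774, 1034 and 777. Replicate 3 was the one high-glucose sample above the low-glucose samples, and the other 3 lay below them. PGD was not called with all samples (-0.10, SE 0.11, adjusted p = 0.59) and was called without replicate 3 (-0.21, SE 0.03, 3.16e-05). The size of that change moved with scaling. Without replicate 3 the median change of all genes was -0.12 in this line as deposited and -0.01 by median-of-ratios scaling. The change of PGD was then -0.09 by median-of-ratios scaling (adjusted p = 0.0299). Its call without replicate 3 was kept in 12 of 14 alternatives. The call was lost with DESeq2 (-0.09, adjusted p = 0.0757) and after a trend with transcript length was removed (-0.04, 0.364).

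TKT, the transketolase, was higher at high glucose in every line by its values. In MDA-MB-175 its values were 3759, 3488, 3696 and 3114 at low and 4432, 4141, 4042 and 4193 at high glucose. In ZR-75-30 they were 4405, 4584, 4642 and 4287 at low and 5405, 5549, 5679 and 4897 at high glucose. In HCC1500 they were 949.7, 977, 918 and 969 at low and 1103, 1080, 2090 and 1101 at high glucose. Every high-glucose sample lay above every low-glucose sample of its line in all 3 lines. TKT rose by 0.26 in MDA-MB-175 (SE 0.05, adjusted p = 0.00181) and by 0.26 in ZR-75-30 (SE 0.04, 8.04e-05). In HCC1500 the change was 0.43 with all samples (SE 0.20, adjusted p = 0.177) and 0.20 without replicate 3 (SE 0.03, 2.72e-05). With all samples it was called in 6 of 14 alternatives: median-of-ratios scaling (0.49, adjusted p = 0.0462), edgeR (0.49, 0.0446), DESeq2 (0.51, 0.0129), the length trend removed (0.50, 0.0122), sample weights (0.20, 5.22e-04) and a single fit on all 24 samples (0.43, 0.0171). Without replicate 3 the change was 0.32 by median-of-ratios scaling and 0.35 with the length trend removed, called in both. In the other lines, with a single fit on all 24 samples the adjusted p was 0.165 in ZR-75-30 and 0.273 in MDA-MB-175. With replicate 3 left out of that fit, the adjusted p-values were 1.01e-04 and 2.75e-04.

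**Figure D3:**
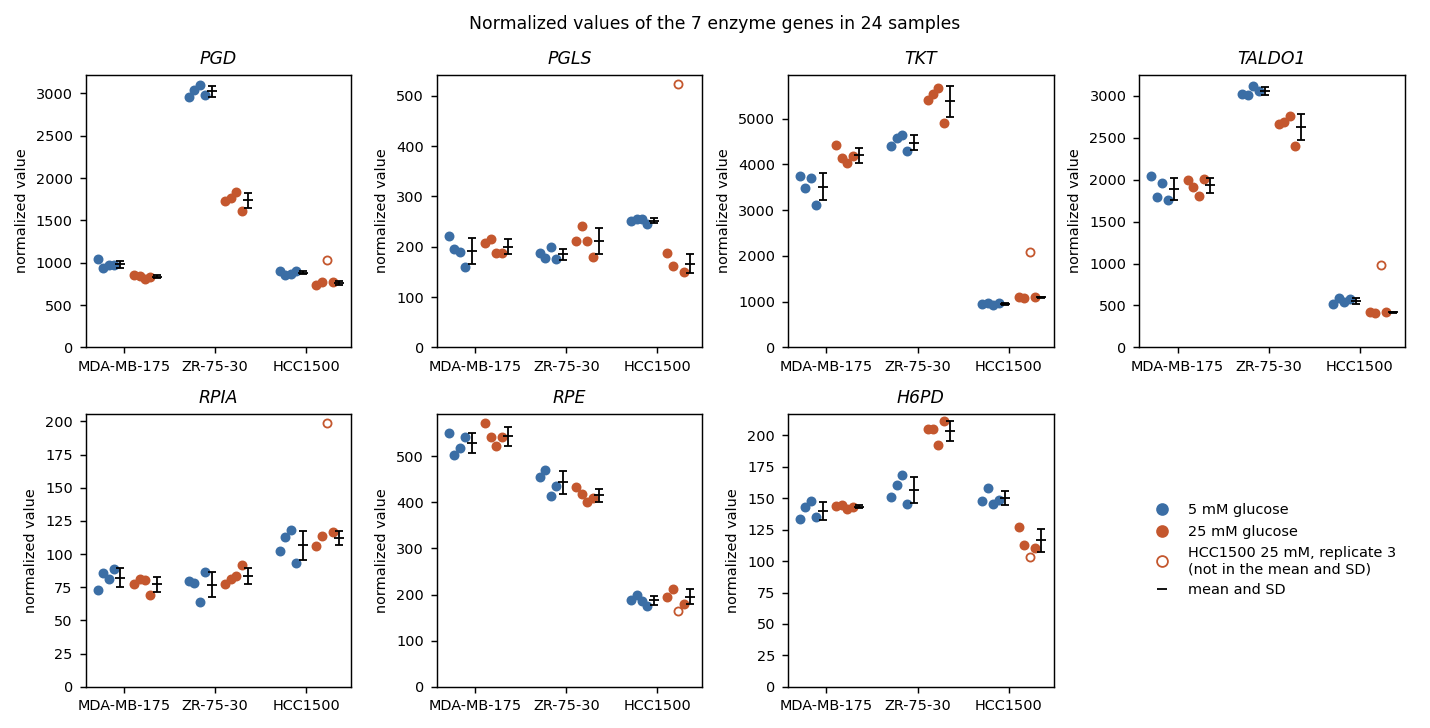
Normalized values of the 7 genes (y axes, linear from 0) in each of 24 samples by line, at 5 mM (blue) and 25 mM glucose (orange), with the mean and SD of each group. The open symbol is HCC1500 high-glucose replicate 3, which is not in the mean and SD; PGD lies lower and TKT higher at 25 mM in each line when it is set aside.

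Because the change in PGD and TKT ran in opposite directions, their ratio within a sample, which no scaling factor can alter, was computed as a description. The ratio of PGD to TKT in MDA-MB-175 was 0.280 ± 0.021 (SD, n = 4) at low and 0.199 ± 0.0050 at high glucose. It was 0.675 ± 0.014 and 0.323 ± 0.0053 in ZR-75-30. In HCC1500 it was 0.926 ± 0.033 at low glucose and 0.698 ± 0.024 at high glucose over the 3 samples other than replicate 3, which had 0.495. All high-glucose ratios lay below all low-glucose ratios of the same line, replicate 3 included. The ratio of TALDO1 to TKT was likewise lower at high glucose in every line, at 0.682 ± 0.025 against 0.488 ± 0.0044 in ZR-75-30, 0.538 ± 0.021 against 0.459 ± 0.015 in MDA-MB-175, and 0.582 ± 0.025 against 0.384 ± 0.0024 in HCC1500 without replicate 3 (0.467).

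**Figure D4:**
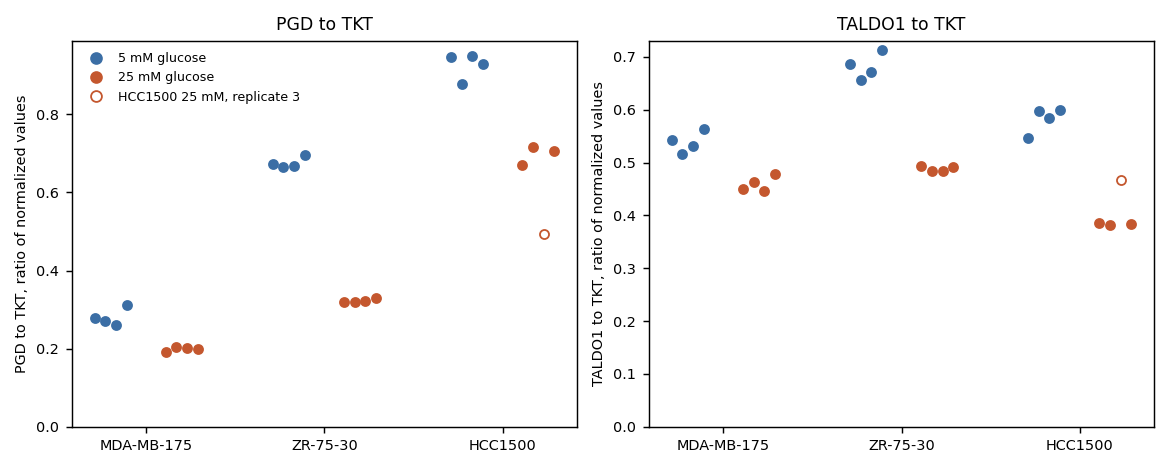
Ratio of the normalized value of PGD to that of TKT (left) and of TALDO1 to that of TKT (right) in each sample (y axes, linear from 0), by line and glucose concentration. The 25 mM samples lie below the 5 mM samples of the same line in both panels, including HCC1500 replicate 3 (open symbol), which has a PGD to TKT ratio of 0.495 and a TALDO1 to TKT ratio of 0.467.

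H6PD moved in opposite directions in ZR-75-30 and HCC1500. In ZR-75-30 its values were 151, 161, 169 and 146 at low and 205, 205, 193 and 212 at high glucose, without overlap, and it rose by 0.38 (SE 0.07, adjusted p = 1.27e-04). In HCC1500 they were 148, 158, 145 and 149 at low and 127, 112, 103 and 110 at high glucose, also without overlap. There H6PD fell by 0.41 with all samples (SE 0.10, adjusted p = 0.0185) and by 0.36 without replicate 3 (SE 0.07, 2.09e-04). With all samples the call was lost, among other settings, with edgeR, with median-of-ratios scaling, with the length trend removed, and when any 1 low-glucose sample or high-glucose replicate 4 was left out. Without replicate 3 it was kept in 14 of 14 alternatives, at -0.38 to -0.25. In MDA-MB-175 the high-glucose samples (142 to 145) lay inside the low-glucose range (133 to 148), and H6PD was not called (0.04, SE 0.07, adjusted p = 0.737). Of its partners in the endoplasmic reticulum, HSD11B1, which encodes a steroid reductase that uses its NADPH, was listed at 0 in all 24 samples. The other partners were SLC37A4, the transporter that brings in the substrate of H6PD, and G6PC3, a phosphatase acting on the same sugar. HSD11B1 and SLC37A4 were named after their values were seen. G6PC3 fell in ZR-75-30 (-0.18, adjusted p = 0.0316) and MDA-MB-175 (-0.21, 0.021). SLC37A4 was called in neither (-0.21, adjusted p = 0.131, and 0.08, 0.536). In HCC1500 both genes were called lower when replicate 3 was left out (SLC37A4 -0.90, 5.75e-09, and G6PC3 -0.87, 9.23e-13), as were 37.7% of all tested genes. With replicate 3 neither was called there (-0.64, 0.0851, and -0.57, 0.147).

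TALDO1 fell in ZR-75-30 and, without replicate 3, in HCC1500. In ZR-75-30 its values were 3024, 3007, 3117 and 3060 at low and 2666, 2688, 2753 and 2403 at high glucose, without overlap, a change of -0.22 (SE 0.04, adjusted p = 2.30e-04). In HCC1500 they were 518, 583, 536 and 581 at low and 425, 411, 977 and 423 at high glucose. The 3 high-glucose samples other than replicate 3 lay below all low-glucose samples; the change was -0.09 with all samples (SE 0.26, adjusted p = 0.843) and -0.40 without replicate 3 (SE 0.04, 4.51e-07). Without replicate 3 it was -0.28 by median-of-ratios scaling and -0.19 with the length trend removed, called in both. In MDA-MB-175 the groups overlapped, with 1757 to 2039 at low and 1805 to 2006 at high glucose, and TALDO1 was not called (0.03, SE 0.05, adjusted p = 0.697).

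PGLS, the lactonase, had the largest deviation in replicate 3 of the 7 genes. In HCC1500 it had 251, 255, 256 and 245 at low glucose and 188, 162, 524 and 150.0 at high glucose. Replicate 3 was more than any low-glucose sample and the other 3 were below all of them. The change was -0.19 with all samples (SE 0.36, adjusted p = 0.763) and -0.60 without replicate 3 (SE 0.07, 3.52e-07), where removing the length trend gave -0.40, still called. In ZR-75-30 the low-glucose samples had 175 to 199 and the high-glucose samples 180.2 to 242. In MDA-MB-175 the ranges were 159 to 221 and 187 to 216. It was called in neither line by the main test (0.19, SE 0.08, adjusted p = 0.0628, and 0.07, SE 0.09, 0.62). In ZR-75-30 it was called with edgeR (adjusted p = 0.0495), sample weights (0.0253) or the length trend removed (0.0407), and in 2 of 8 fits that left out 1 sample. Of its exon bases, 254 are also covered by PGLS-DT on the other strand, and since the strand setting of the counting is not given in the sources used here, reads of the pair cannot be told apart.

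RPIA and RPE, the isomerase and epimerase of the nonoxidative branch, were called in no line by the main test, and their groups overlapped in all 3 lines. RPIA lay between 63.8 and 118 in all samples other than replicate 3 of HCC1500 at high glucose, which had 199. RPE lay between 503 and 572 in MDA-MB-175, between 401 and 470 in ZR-75-30 and between 164 and 212 in HCC1500. RPIA had a fitted change of 0.12 in ZR-75-30 (SE 0.11, adjusted p = 0.376), -0.09 in MDA-MB-175 (SE 0.10, 0.554) and 0.28 in HCC1500 (SE 0.20, 0.368; 0.08 without replicate 3, SE 0.09, 0.467). RPE had -0.09 (SE 0.05, 0.145), 0.04 (SE 0.05, 0.596) and -0.0018 (SE 0.10, 0.992; 0.06 without replicate 3, SE 0.07, 0.453). Without replicate 3, RPE in HCC1500 was called under median-of-ratios scaling (0.18, adjusted p = 0.0252), with edgeR (0.17, 0.0354) and with the length trend removed (0.21, 0.00932), the setting in which RPIA was also called (0.27). RPE is also the gene with the most annotation overlap, with 840 exon bases shared with KANSL1L on the other strand and 6 named pseudogenes, so its counts are uncertain; PGD and RPIA have 1 named pseudogene each.

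Counted over the genes, 2 of 7 members were called in MDA-MB-175 (1 higher and 1 lower), against 25.7% of 17029 tested genes (11.9% higher and 13.7% lower). In ZR-75-30, 4 of 7 were called (TKT and H6PD higher, PGD and TALDO1 lower), against 46.0% of 15834 genes (23.4% higher and 22.7% lower). In HCC1500, 1 of 7 was called, H6PD lower, against 20.5% of 16361 genes (7.46% higher and 13.0% lower). Which member was called there turned with the scaling: it was TKT, higher, and not H6PD with median-of-ratios scaling or edgeR, and both with DESeq2. Without replicate 3 it was 5 of 7 (TKT higher and PGD, PGLS, TALDO1 and H6PD lower), against 58.5% of 16235 genes (20.9% higher and 37.7% lower). Each count was within 1 gene of what the share of all genes would give for 7. The split of HCC1500 calls moved with scaling, from 36.4% higher as deposited to 48.9% by median-of-ratios scaling, and from 35.7% to 50.5% without replicate 3. Sequencing depth also did not overlap between the conditions of this line, at 13190982 to 17998819 reads at low and 9423472 to 12140912 at high glucose, and depth and glucose cannot be told apart there.

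The median change of the 7 members was 0.04 in MDA-MB-175, against -0.02 over all tested genes. It was 0.12 against 0.01 in ZR-75-30. In HCC1500 it was -0.09 against -0.06, and without replicate 3 it was -0.21 against -0.12. By groups that did not overlap, TKT and PGD separated in MDA-MB-175 (26.6% of all genes did), TKT, PGD, TALDO1 and H6PD in ZR-75-30 (42.0%), and TKT and H6PD in HCC1500 (32.4%), where PGD, PGLS and TALDO1 joined them without replicate 3 (58.1%). With that sample left out, TKT was called higher in all 3 lines, as were 3.73% of 14572 genes tested in all, and PGD was called lower in all 3 lines, as were 6.74%. With all samples, no member was called in the same direction in all 3 lines by the main test. TKT was called higher in all 3 lines with edgeR, DESeq2, median-of-ratios scaling, the length trend removed or sample weights. PGD was called lower in all 3 with sample weights. The share of all genes called alike in all 3 lines was not counted under these settings. In HCC1500 alone they called from 3528 genes (median-of-ratios scaling) to 9436 (sample weights) of 16361.

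**Figure D5:**
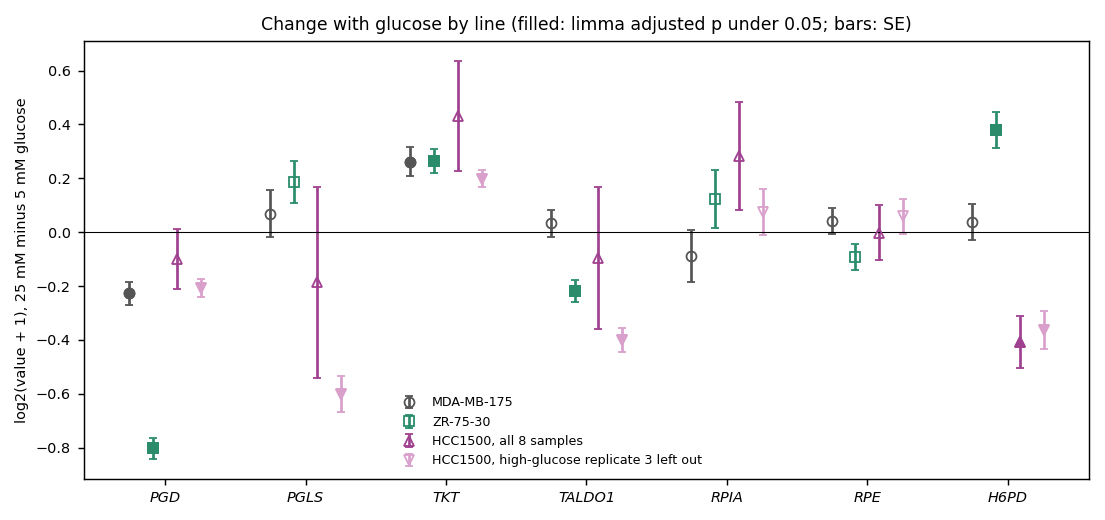
Change in log2(value + 1) from 5 mM to 25 mM glucose (y axis) of each gene, with its SE, by line, HCC1500 with all 8 samples and with high-glucose replicate 3 left out. Filled symbols have a limma adjusted p under 0.05; PGD lies farthest below 0 in ZR-75-30 (-0.80), TKT lies above 0 in each line, and H6PD is above 0 in ZR-75-30 (0.38) and below 0 in HCC1500 (-0.41).

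Whether the change with glucose differed between the lines was tested with an F test in the model of all 24 samples. PGD (adjusted p = 3.46e-05) and H6PD (5.23e-06) were called, 2 of 7 members against 29.3% of all tested genes. The change of PGD in ZR-75-30 was lower than in MDA-MB-175 (difference for MDA-MB-175 minus ZR-75-30 of 0.58, SE 0.10, adjusted p = 6.20e-04) and than in HCC1500 (ZR-75-30 minus HCC1500, -0.70, SE 0.10, 2.40e-05). For H6PD the 3 differences were -0.34 for MDA-MB-175 minus ZR-75-30 (SE 0.09, adjusted p = 0.0192), 0.44 for MDA-MB-175 minus HCC1500 (SE 0.09, 0.00172) and 0.79 for ZR-75-30 minus HCC1500 (SE 0.09, 1.73e-06). With replicate 3 left out, H6PD had 0.40 for MDA-MB-175 minus HCC1500 (SE 0.08, 5.99e-04) and 0.74 for ZR-75-30 minus HCC1500 (SE 0.08, 1.47e-07). PGD then had -0.59 for ZR-75-30 minus HCC1500 (SE 0.05, 4.54e-09). Without replicate 3 of HCC1500, PGLS (4.89e-05) and TALDO1 (9.70e-05) were called too, 4 of 7 against 48.6% of all tested genes. PGLS then changed more negatively in HCC1500 than in ZR-75-30 (ZR-75-30 minus HCC1500, 0.79, SE 0.13, 3.33e-05) and than in MDA-MB-175 (0.67, SE 0.13, 3.21e-04). TALDO1 then differed between each pair of lines (0.25 for MDA-MB-175 minus ZR-75-30, adjusted p = 0.00884, 0.43 for MDA-MB-175 minus HCC1500, 5.19e-05, and 0.18 for ZR-75-30 minus HCC1500, 0.0481). For TKT the F test gave an adjusted p of 0.727, and 0.696 without replicate 3, with differences between lines of at most 0.06 (SE 0.07) in the latter fit, which does not show that the lines respond alike.

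Genes that handle ribose and the neighbouring sugar phosphates were examined as a list of 15, of which 11 were tested (TKTL1, TKTL2, RPEL1 and RGN were not analysed here). In HCC1500, PRPS1 was near the floor, with means of 1.29 at low and 1.09 at high glucose. Of all tested genes, 25.7% were called in MDA-MB-175 (13.7% lower), 46.0% in ZR-75-30 (22.7% lower) and 20.5% in HCC1500 (13.0% lower), or 58.5% there without replicate 3 (37.7% lower). In MDA-MB-175, 3 were called higher (PRPS1, TIGAR and FBP1) and 3 lower (PRPS2, PRPSAP1 and PGM2), in ZR-75-30, 2 higher (PGM1 and FBP1) and 6 lower (SHPK, PRPS2, PRPSAP2, RBKS, DERA and PGM2), and in HCC1500, 1 higher (TIGAR) and 2 lower (SHPK and PRPS2). The list's median change was -0.11, -0.27 and -0.05, in that order of lines, against -0.02, 0.01 and -0.06 over all tested genes. In HCC1500 without replicate 3 it was -0.21, against -0.12 over all tested genes. PRPS2, which makes the ribose donor for nucleotide synthesis from the product of RPIA, was the gene called lower in all 3: it fell by 0.33 in ZR-75-30 (adjusted p = 2.08e-04), 0.25 in MDA-MB-175 (0.00427) and 0.52 in HCC1500 (0.00498; -0.54 without replicate 3). TIGAR (listed as C12orf5), a phosphatase that lowers glycolytic flux, rose in MDA-MB-175 (0.22, adjusted p = 0.0347) and HCC1500 (0.50, 0.0276; 0.40 without replicate 3). Without replicate 3, HCC1500 had 1 gene higher (TIGAR) and 5 lower (SHPK, PRPS2, PRPSAP1, PGM1 and FBP1). PGM1, which interconverts glucose phosphates, and FBP1, a gluconeogenic phosphatase, then fell in HCC1500 (-0.40, 2.54e-06, and -0.35, 7.22e-08) and rose in ZR-75-30 (0.42, 0.0027, and 0.50, 0.0232). With replicate 3 neither was called in HCC1500 (-0.24, 0.303, and -0.05, 0.916). FBP1 was low in ZR-75-30, with means of 20.2 at low and 29.0 at high glucose. At low glucose its means were 1709 in MDA-MB-175 and 1653 in HCC1500.

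The other sources of NADPH were a list of 14 genes, all of them tested except for MTHFD1L in HCC1500. In MDA-MB-175, 4 were called higher and 4 lower (25.7% of all tested genes were called), with a median of -0.04. In ZR-75-30, 4 were called higher and 3 lower (46.0% of all tested genes), with a median of 0.09. In HCC1500 5 of 13 were called, each lower, with a median of -0.20, against 20.5% of all tested genes called (13.0% lower) and a median of -0.06. Without replicate 3, 1 was higher and 8 were lower, with a median of -0.22, against 58.5% of all tested genes (20.9% higher and 37.7% lower) and a median of -0.12. MTHFD1, a folate enzyme of the cytosol, was lower in all 3 lines (-0.50 in ZR-75-30, adjusted p = 1.89e-09, -0.22 in MDA-MB-175, 5.97e-04, and -0.43 in HCC1500, 0.00249). NADK, which makes NADP from NAD, was higher in ZR-75-30 (0.19, 0.00422) and MDA-MB-175 (0.38, 3.62e-04), and in HCC1500 without replicate 3 (0.16, 0.00608; 0.32, 0.186 with it). IDH1, IDH2 and NNT were called in opposite directions in different lines. The cytosolic dehydrogenase IDH1 was higher in MDA-MB-175 (0.22, 6.64e-04) and lower in ZR-75-30 (-0.52, 1.70e-09) and HCC1500 (-0.54, 0.00161). Its mitochondrial counterpart IDH2 was lower in MDA-MB-175 (-0.34, 1.14e-04) and HCC1500 (-1.13, 0.0053) and higher in ZR-75-30 (0.33, 6.51e-06). NNT, the mitochondrial transhydrogenase, had the same signs as IDH2, at -0.23 in MDA-MB-175 (0.00436), -0.67 in HCC1500 (0.0144) and 0.58 in ZR-75-30 (1.35e-05). The F test for a change that differs between lines gave adjusted p-values of 5.81e-09 for IDH1, 1.49e-05 for IDH2 and 6.48e-06 for NNT. With replicate 3 left out, they were 1.49e-12, 5.27e-14 and 1.40e-09, in that order. Without replicate 3 the HCC1500 changes were -0.58 for IDH1, -1.35 for IDH2, -0.51 for NNT and -0.44 for MTHFD1, each still called. ME1 was then also called in opposite directions, higher in MDA-MB-175 (0.59, 1.60e-05) and lower in HCC1500 (-0.21, 0.00619). With replicate 3 it was not called in HCC1500 (-0.17, 0.245), and it was not called in ZR-75-30 (-0.06, 0.223).

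The genes whose level followed each member most closely over the 24 samples were taken as the pair with the highest Pearson correlation of log2(value + 1) among 13310 genes whose mean value was 10 or more. The samples fall into 3 lines, which set most of these correlations, and they are given as a description. They were MT2A (0.979) and PSMD1 (0.977) for PGD, MORF4L1 (0.993) and TMED3 (0.990) for TKT, and MAPKAPK3 (0.993) and NDUFS6 (0.992) for TALDO1. They were APCDD1 (0.992) and RFTN1 (0.992) for RPE and DDX60 (0.934) and AHCYL1 (0.924) for H6PD. For PGLS and RPIA the correlation fell when replicate 3 of HCC1500 was left out, from 0.925 to 0.826 for PGLS with COA3, from 0.920 to 0.766 for PGLS with COX4I1, from 0.939 to 0.873 for RPIA with C12orf73, and from 0.912 to 0.841 for RPIA with RP11-61A14.3.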

How the data were processed

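RNA of 24 samples of the 3 lines was sequenced on an Illumina HiSeq, and the titles gave each sample its line, glucose condition and replicate number. The deposited table holds a normalized signal per gene, which the values show to be reads that the authors divided by 1 factor per sample; its unit is not stated. Per the labels, the submitters' processing notes name edgeR and hg38, while the methods for the tumors name hg19; the aligner, the counter and its strand setting for these lines are not given in the sources used here. All values were whole multiples of 1 read within 0.1 reads (100% of values in each sample), so that reads were recovered and values summed to 5559394 to 7594840 per sample. Intervals and floors cover counting error only.

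Low and high glucose were compared within the 8 samples of a line by limma 3.58.1 (R 4.3.3) after log2(value + 1) transformation, a scale that understates changes of low genes. An intensity trend in the variance prior was used with no covariate, over genes of at least 0.5 in at least 4 samples. p-values were adjusted by Benjamini-Hochberg over all tested genes, and calls were made under 0.05. A 6-group model of all 24 samples compared lines and tested whether the change differed between them. Where no tool is named, adjusted p-values come from limma.

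The members, lists and tests were chosen with earlier results of these data known. Genes named were the members, the 2 genes most correlated with each, the ribose list, and from the other lists those called alike in 3 lines or oppositely in 2. For this the HCC1500 calls were taken with or without high-glucose replicate 3. HSD11B1 and SLC37A4, and the single markers given with a value, were picked after their values were seen. Transcript lengths are those of the canonical transcript in a GENCODE annotation of GRCh37, which gave one for 95.1% of genes. Promoters of all 7 members matched RefSeq by symbol. Alternatives changed the pseudocount, filter, scaling, variance prior, weights, replicate block, length trend, threshold and samples, or used edgeR 4.0.16 and DESeq2 1.42.0 on the recovered reads. Scripts were tested on simulated data.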

Additional observations from a re-analysis of the deposited data

Results flagged for a closer look

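Within groups of 4 samples, a value was marked when its gap to the nearest other sample, as a share of the group's range, was above Dixon's 95% value. Of 42 groups of member values, 5 were marked, and all 5 were replicate 3 of HCC1500 at high glucose: PGD at 1034, PGLS at 524, TKT at 2090, TALDO1 at 977 and RPIA at 199. Chance marks about 1 in 20 groups, and these 5 come from 1 sample. RPE and H6PD, with the longest transcripts, were not marked in it. TKT, at 2996 bases close in length to RPE at 3180, was marked.

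The change with glucose differed between the lines for PGD (limma F test, adjusted p = 3.46e-05) and H6PD (adjusted p = 5.23e-06). PGD fell in MDA-MB-175 and ZR-75-30 by different amounts, and H6PD rose in ZR-75-30 and fell in HCC1500. Without replicate 3 the adjusted p-values were 1.24e-09 and 5.08e-07.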

How the results depend on the processing

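PGD in ZR-75-30 and MDA-MB-175, and H6PD in ZR-75-30 kept their direction and call in 14 of 14 alternatives and 8 of 8 leave-one-out fits. Requiring a log2 change of at least 1 left 0 members in each line and 1 between MDA-MB-175 and ZR-75-30, and cut the calls among all genes to 910 of 3350 in HCC1500, 381 of 4368 in MDA-MB-175 and 1040 of 7290 in ZR-75-30, and to 5870 of 11567, 7577 of 13180 and 7994 of 13245 between lines. A single fit on all 24 samples called 1 member in MDA-MB-175 (2011 genes) and 2 in ZR-75-30 (5142 genes), fewer than the main test. In HCC1500 it called 2 (5842 genes), more than the 1 (3350 genes) of the main test. With HCC1500 high-glucose replicate 3 left out of that fit, chosen after seeing the data, TKT and TALDO1 were called again in ZR-75-30. TKT was then also called again in MDA-MB-175. In HCC1500 the count was 2 with DESeq2 (4432 genes), 5 with sample weights (9436 genes) and 2 with the length trend removed (5688 genes). It was 0 to 5 when leaving out 1 sample. The count was 0 without low-glucose replicate 1, 2, 3 or 4 (2015 to 2104 genes) or high-glucose replicate 4 (2491 genes). It was 5 without high-glucose replicate 3 (9504 genes). With replicate 3 left out under every other setting (also chosen after seeing the data), the HCC1500 count was 4 to 6. It was 4 with DESeq2, where 8021 of 16235 genes were called. Among the settings with 6 were edgeR (9112 genes) and median-of-ratios scaling (9242 genes). The count for a response that differs between lines was 4 with sample weights (9148 genes) and 4 with the length trend removed (7219 genes). It was 2 to 4 when leaving out 1 sample, with 4 (8809 genes) only without replicate 3. Between MDA-MB-175 and ZR-75-30 it was 3 to 5 when leaving out 1 sample, with 3 without MDA-MB-175 low-glucose replicate 4 or without ZR-75-30 low-glucose replicate 2 or 3.

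Among the changes of members with glucose, those that turned direction were not called in the fit reported. In HCC1500, PGLS was 0.0059 and TALDO1 0.0175 with DESeq2, and RPE was 0.0510 with median-of-ratios scaling, 0.0517 with edgeR, 0.0714 with DESeq2, 0.0502 with sample weights and 0.0726 with the length trend removed. Leaving out 1 sample gave TALDO1 in HCC1500 a range of -0.399 to 0.0163 and RPE one of -0.0636 to 0.0599, and in MDA-MB-175 PGLS one of -0.0153 to 0.141 and TALDO1 one of -0.0012 to 0.0701. The cause was not tested. Replicate numbers did not pair the samples: deviations of same-numbered samples had mean correlations of 0.02 in HCC1500, 0.04 in MDA-MB-175 and 0.01 in ZR-75-30. With the replicate block in limma, 0 members (1, H6PD, at an unadjusted p under 0.05) and 1964 genes were called in HCC1500. There H6PD lost its call (adjusted p = 0.0777). edgeR, run without the block, called 3576 genes in HCC1500 and 1 member among them, TKT (adjusted p = 0.0446). In ZR-75-30 the block called PGLS (0.0383). The part of depth in the results of the members was not tested, and RPIA and H6PD had as few as 112 and 139 reads in a sample.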
